A study of Mus musculus with 4 samples.

Results

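A set of 9 genes for secreted factors that tumor-associated myeloid cells are known to release was followed through single-cell profiles of tumor neutrophils and blood neutrophils. They are Tnf, Tnfsf14, Osm, Il23a, Vegfa, Csf1, Spp1, Tgfb1 and Hbegf, chosen by name with earlier results of these data known. They make up 9 of the 18894 genes listed in either tissue's file. All 9 are listed for tumor and 7 for blood, where Il23a and Hbegf do not occur and were given 0 counts. Both groups came from the same 3 FVB mice, an inbred strain, each injected with Py7160 cells, a mouse mammary tumor line, and given no treatment. Tumors were taken at a diameter of about 1 cm, 2 to 3 weeks after the injection, and were broken up enzymatically, and red cells were lysed in the blood. Cells were enriched through the neutrophil surface protein Ly6G to about 90% purity, stained with 1 of 3 hashtag antibodies (DNA-tagged antibodies that mark the mouse), pooled by tissue and sorted as CD11b+ Ly6G+ to over 99% purity. The labels used here give no age. A single Drop-seq RNA library was made per tissue, in which droplets tag the RNA of each cell with a barcode and unique molecules (UMIs) are counted. Tissue, library and cell preparation can therefore not be told apart, and the injected line is a single tumor model.

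Cells were barcodes with at least 200 detected genes and at most 15% mitochondrial UMIs, given to a mouse where 1 hashtag held at least 70% of the hashtag counts. This left 841 of 947 tumor cells (106, 564 and 171 from mice 1, 2 and 3, with 70612, 385370 and 116862 UMIs) and 1375 of 1534 blood cells (511, 456 and 408, with 436713, 380059 and 330296 UMIs). The median depth was 570 to 586 UMIs per cell in the tumor mice and 647.5 to 671 in the blood mice, and no barcode was shared between the libraries' assigned cells. The 9 neutrophil markers, which include S100a8, S100a9 and Csf3r, were all detected and summed to 66857 to 81096 CPM (UMI counts put on an equal library size) in tumor mice, against 179772 to 207539 CPM in blood mice. Monocyte or macrophage markers summed to 312 to 2165 CPM in tumor mice with none of 11 at 0, against 224 to 291 CPM in blood mice with 7 of 11 at 0, among them C1qa, C1qb, C1qc and Mrc1. MHC class II and dendritic markers summed to 156 to 2854 CPM in tumor mice, against 36.6 to 133 CPM in blood mice, with 4 of 8 at 0 in both, Flt3, Xcr1, Clec9a and Cd209a. Endothelial, NK and mast cell markers were all at 0 in tumor cells, 6 of 7 epithelial markers were at 0, and the red-cell markers were at 0 in tumor cells but at 16709 ± 4716 CPM in blood cells (SD, n = 3). Tumor mouse 2 carries a limit of its own. Of 2823 tumor barcodes with 20 to 60 UMIs and hashtag counts, 72.2% also passed the 70% rule, and 1972 of those 2039 carried hashtag 2, so the assignment to tumor mouse 2 is the least certain. HTODemux of Seurat, another way of assigning cells, gave 134, 243 and 213 tumor barcodes to the 3 mice before the mitochondrial limit.

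TNF (Tnf) and LIGHT (Tnfsf14) are ligands of the TNF superfamily, made as membrane proteins and released by proteases, and TNF is a main inducer of NF-kB target genes. Oncostatin M (Osm) is an IL-6 family cytokine that signals through gp130 and STAT3, and Il23a encodes the p19 subunit of IL-23, which supports T cells that make IL-17. VEGF-A (Vegfa) drives blood vessel growth and is induced by low oxygen, M-CSF (Csf1) sustains macrophages, osteopontin (Spp1) binds CD44 and integrins, TGF-beta 1 (Tgfb1) is secreted in a latent form, and HB-EGF (Hbegf) is a ligand of the EGF receptor. Several of these messages are known to be unstable through AU-rich elements in the 3′ UTR, which proteins such as tristetraprolin (Zfp36) bind.

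The 9 genes are all annotated as protein coding in GENCODE vM21 on GRCm38, the assembly also named mm10 in the submitters' processing notes. Tnf (chr17:35199381-35202007), Tnfsf14 (chr17:57189492-57194177), Vegfa (chr17:46016993-46032369), Il23a (chr10:128296139-128298752) and Csf1 (chr3:107741048-107760469) lie on the minus strand. Osm (chr11:4236420-4241026), Spp1 (chr5:104435118-104441050) and Tgfb1 (chr7:25687002-25705077) lie on the plus strand. Only Spp1 overlaps another annotated gene, Gm42793 on the same strand, so reads of the pair may not be told apart. The promoters of 6 members were matched in RefSeq (GRCm38.p6, a C57BL/6J sequence, whereas the mice were FVB). The 4 below run 5′ to 3′ from 250 bases before the start site to 50 bases from it, and are shown because Tnf, Vegfa and Csf1 rose in tumor neutrophils whereas Tnfsf14 fell. The Tnf promoter (chr17:35201958-35202257, minus strand) has TATAAA in capitals.
Tnf: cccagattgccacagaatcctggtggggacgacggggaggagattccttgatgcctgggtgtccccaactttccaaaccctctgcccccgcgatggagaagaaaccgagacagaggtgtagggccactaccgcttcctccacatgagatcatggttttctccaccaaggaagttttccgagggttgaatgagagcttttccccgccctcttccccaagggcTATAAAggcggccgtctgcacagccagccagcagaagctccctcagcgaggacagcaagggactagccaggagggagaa
The capitals in the Vegfa promoter (chr17:46032328-46032627, minus strand) mark a match to the NF-kB consensus, 118 to 109 bases before the start site.
Vegfa: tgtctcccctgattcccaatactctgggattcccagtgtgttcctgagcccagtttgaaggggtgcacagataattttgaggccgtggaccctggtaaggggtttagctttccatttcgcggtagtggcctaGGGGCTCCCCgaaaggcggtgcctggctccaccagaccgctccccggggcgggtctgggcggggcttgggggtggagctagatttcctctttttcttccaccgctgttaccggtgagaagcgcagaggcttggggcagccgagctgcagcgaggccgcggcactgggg
The capitals in the Csf1 promoter (chr3:107760420-107760719, minus strand) mark a match on the opposite strand, 154 to 145 bases before the start site.
Csf1: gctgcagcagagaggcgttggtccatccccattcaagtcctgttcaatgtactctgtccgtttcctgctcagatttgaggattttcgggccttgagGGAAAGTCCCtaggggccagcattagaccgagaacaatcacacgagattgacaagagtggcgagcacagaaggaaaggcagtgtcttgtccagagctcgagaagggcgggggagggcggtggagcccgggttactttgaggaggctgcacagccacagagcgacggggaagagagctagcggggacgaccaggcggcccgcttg
The capitals in the Tnfsf14 promoter (chr17:57194132-57194431, minus strand) mark TGANTCA, the AP-1 site, then ACGTG and GCGTG, the cores bound by hypoxia-inducible factors.
Tnfsf14: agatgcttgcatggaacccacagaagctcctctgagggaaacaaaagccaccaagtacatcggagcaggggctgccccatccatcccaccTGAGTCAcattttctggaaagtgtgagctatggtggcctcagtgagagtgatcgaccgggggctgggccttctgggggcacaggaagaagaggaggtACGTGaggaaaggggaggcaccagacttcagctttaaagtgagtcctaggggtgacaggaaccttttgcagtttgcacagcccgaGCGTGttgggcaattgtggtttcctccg

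Motifs were searched on both strands. Of all 32851 RefSeq promoters of this length, 4.51% hold the NF-kB consensus, 7.81% TGANTCA, 19.6% ACGTG, 32.4% GCGTG and 13.6% TATAAA. A match describes the letters of this window only. Spp1 holds TATAAA at 211 to 206 bases before its start site, and Tgfb1 holds GCGTG on the opposite strand.

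The 3′ UTRs, taken as the longest annotated for each gene, differed among the members in AU-rich heptamers (TATTTAT, transcript strand, overlaps counted). Tnf holds 8, Il23a 5, Osm 3, Vegfa 3 and Hbegf 2, Csf1 and Tnfsf14 hold 1 each, and Spp1 and Tgfb1 hold 0. Of the 3474 genes tested here with a 3′ UTR, 33.6% hold at least 1 and 12.5% at least 2. The lengths ran from 135 bases in Tgfb1 to 2111 in Csf1, with 764 in Tnf and a median of 1285 over tested genes. The windows of 30 bases with the most ATTTA pentamers, in capitals, are given for 4 of the messages that rose.
Tnf: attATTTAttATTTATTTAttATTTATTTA
Il23a: agtatagatgatggttATTTAttctATTTA
Osm: aatccgttttatATTTAtaaggcctATTTA
Vegfa: tcttggttaatATTTAatttcaactATTTA

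Tumor neutrophils carried far more Tnf, Il23a, Spp1 and Vegfa RNA than blood neutrophils, and more Osm and Csf1. They carried less Tnfsf14, and Tgfb1 was not told apart between the tissues. Across all genes, 30.3% of the 3674 tested were higher in tumor neutrophils and 29.6% lower (edgeR's quasi-likelihood test, Benjamini-Hochberg adjusted p under 0.05), 59.9% in all, with a median log2 fold change of -0.04. Of the members, 8 passed the low-count filter, and of these 6 were higher, 1 was lower and 1 was not called. Calls were thus common among all genes, and the members' count was not tested against that background. In the 6 that were higher the tumor and blood mice did not overlap. Of all tested genes, 29.8% had every tumor mouse above every blood mouse, and 33.2% had every tumor mouse below, as Tnfsf14 did. UMIs are counted at the 3′ end and levels are compared here between tissues and not between genes. In summed levels, more cells with a message and more RNA per cell cannot be told apart.

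**Figure D1:**
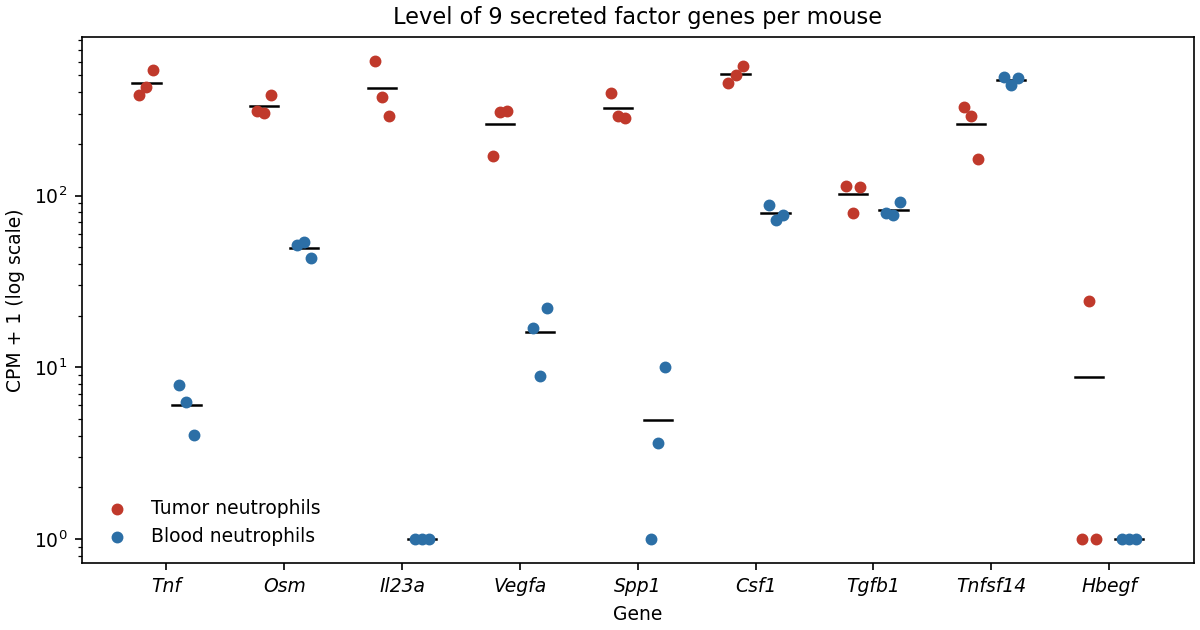
Level of each member as CPM + 1 on a log axis, with a point for each mouse and a black line at the mean, tumor neutrophils left of blood neutrophils (n = 3 mice each). Tnf, Osm, Il23a, Vegfa, Spp1 and Csf1 lie higher in every tumor mouse, Tnfsf14 lies lower, Tgfb1 overlaps, and Hbegf was detected in tumor mouse 2 alone.

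Of the TNF superfamily ligands, Tnf stood at 382, 426 and 539 CPM in tumor mice 1, 2 and 3, from 27, 164 and 63 UMIs. It stood at 6.87, 5.26 and 3.03 CPM in the blood mice, from 3, 2 and 1 UMIs. The groups did not overlap, and every blood mouse had 3 UMIs or fewer. The log2 fold change was 6.34 ± 0.32 (SE, edgeR's quasi-likelihood test, adjusted p = 9.78e-13), and the ratio of the summed levels was 84.8 (95% interval 38.4 to 233, counting error only). LIGHT went the other way. Tnfsf14 stood at 326, 288 and 163 CPM in tumor mice, from 23, 111 and 19 UMIs, against 488, 439 and 484 CPM in blood mice, from 213, 167 and 160 UMIs. Tumor mouse 3 was the lowest, and even the highest tumor mouse lay under the lowest blood mouse. Tnfsf14 fell by 0.81 ± 0.18 on the log2 scale (SE, edgeR, adjusted p = 7.28e-04).

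Of the interleukin-type cytokines, Osm stood at 312, 301 and 385 CPM in tumor mice and at 50.4, 52.6 and 42.4 CPM in blood mice. The tumor values lay close together and all above the blood values, and Osm rose by 2.77 ± 0.22 on the log2 scale (SE, edgeR, adjusted p = 1.50e-09). Il23a stood at 609, 374 and 291 CPM in tumor mice, from 43, 144 and 34 UMIs, whereas no UMI was counted in any of the 1375 blood cells. Against 3 counts over the summed blood mice, and with the tumor level taken as measured, Il23a was at least 147.5-fold higher in tumor neutrophils (edgeR, adjusted p = 4.42e-11). Tumor mouse 1, the mouse with the fewest cells, had the highest level, and 5.66% of its 106 cells held an Il23a UMI. Over the 3 tumor mice together, a few cells held much of the Il23a counts, as described below.

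Of the factors that act on vessels and macrophages, Vegfa stood at 170, 306 and 308 CPM in tumor mice, from 12, 118 and 36 UMIs, against 16.0, 7.89 and 21.2 CPM in blood mice, from 7, 3 and 7 UMIs. Tumor mouse 1 was the lowest of the tumor mice and still stood far above every blood mouse. Vegfa rose by 4.25 ± 0.32 on the log2 scale (SE, edgeR, adjusted p = 5.66e-10). Csf1 stood at 453, 503 and 565 CPM in tumor mice and at 87.0, 71.0 and 75.7 CPM in blood mice. These values were tight within each tissue and did not overlap, and Csf1 rose by 2.73 ± 0.19 on the log2 scale (SE, edgeR, adjusted p = 1.51e-10).

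Spp1 stood at 397, 291 and 282 CPM in tumor mice, from 28, 112 and 33 UMIs, against 0, 2.63 and 9.08 CPM in blood mice, from 0, 1 and 3 UMIs. Every tumor mouse was above every blood mouse, and the summed levels had a ratio of 86.6 (95% interval 33.2 to 321, counting error only). The fitted log2 fold change was 6.33 ± 0.41 (SE, edgeR, adjusted p = 4.09e-11). It rests on 4 blood UMIs, and was 5.59 without blood mouse 1 and 7.42 without blood mouse 3. Tgfb1 stood at 113, 77.8 and 111 CPM in tumor mice and at 77.9, 76.3 and 90.8 CPM in blood mice, so the groups overlapped. Its log2 fold change of 0.21 ± 0.27 had a 95% interval of -0.36 to 0.78 (SE, edgeR, adjusted p = 0.546). Its sign was not stable, with -0.03 without the low-count filter and -0.08 without cells that carry markers of another type.

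Hbegf, which lies on chr18:36504927-36515805 (GRCm38, minus strand), was too sparse for the filter. It had 0, 9 and 0 UMIs in the tumor mice, in 6 cells of mouse 2, and 0 in blood, so the tumor mice overlapped the blood mice at 0. Against 3 counts over the summed blood mice it was at least 6.01-fold higher. In the fit without the filter, where 7.5% of 16032 genes were called higher, its adjusted p was 0.00486 (edgeR). With mice assigned by HTODemux it had 2 UMIs each in tumor mice 2 and 3, and the adjusted p was 0.0845. The call was also lost with at least 300 genes per cell (adjusted p = 0.0877, edgeR) and with at most 5% mitochondrial UMIs (adjusted p = 0.212).

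**Figure D2:**
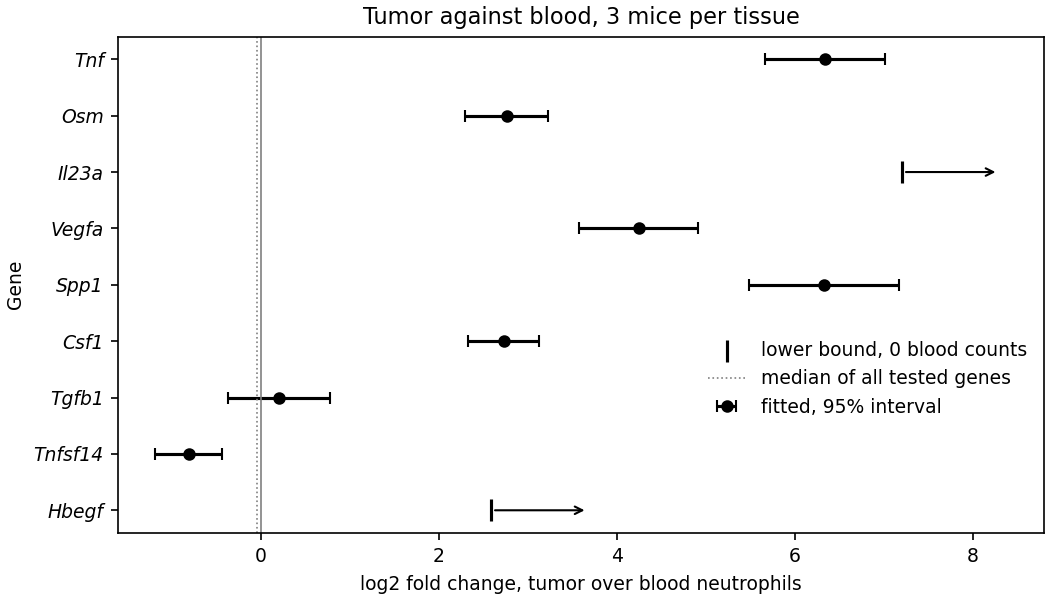
Log2 fold change of each member, tumor over blood neutrophils, with its 95% interval from edgeR. Bars with an arrow are lower bounds for Il23a and Hbegf, which had 0 counts in blood, and the dotted line is the median of all tested genes. Intervals of Tnf, Osm, Vegfa, Spp1 and Csf1 lie above 0, that of Tnfsf14 below, and that of Tgfb1 covers 0.

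The cells that carry these messages were counted next, after thinning every cell to 441 UMIs, which left out 209 tumor and 254 blood cells. A Tnf UMI was then present in 15.1%, 10.8% and 13.5% of cells in the tumor mice, against 0.150%, 0.283% and 0.0893% in the blood mice. Csf1 had the highest share of the members in tumor, 17.2% ± 3.78 of tumor neutrophils, against 3.22% ± 0.24 in blood (SD, n = 3). Osm was seen in 11.3% ± 0.79 against 1.89% ± 0.33, Vegfa in 9.32% ± 1.96 against 0.595% ± 0.26, Il23a in 5.40% ± 0.72 against 0 and Spp1 in 5.28% ± 0.41 against 0.276% ± 0.39 of tumor and blood cells. For these 6 genes every tumor mouse lay above every blood mouse, and the exact two-sided permutation test gave p = 0.1 for each, its lowest possible value with 3 mice per tissue. Tnfsf14 had the highest share in blood, 10.3% ± 3.10 of tumor neutrophils, against 18.8% ± 1.67 in blood (SD), without overlap (exact permutation p = 0.1). Tgfb1 was seen in 3.96% ± 0.84 and 3.63% ± 0.64 (exact permutation p = 0.8). At full depth, 0 of 1375 blood cells with an Il23a UMI allows a share of up to 0.218%, which limits cells with a UMI and not cells that express the gene (counting error only).

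At full depth a Tnf UMI was found in 134 of 841 tumor cells and 6 of 1375 blood cells, an Il23a UMI in 56 and 0, an Spp1 UMI in 59 and 4, a Csf1 UMI in 190 and 71, and a Tnfsf14 UMI in 103 and 390. At least 1 member was seen in 529 tumor cells and 542 blood cells. In tumor 170 cells held UMIs of 2 of the members, 43 held 3 and 13 held 4 or more, whereas in blood 72 held 2, 5 held 3 and 1 held 4 or more. In 390 of the 542 blood cells with any member, that member, or 1 of them, was Tnfsf14. Members seen together in a cell do not give the number of factors it makes, since RNA outside cells, described next, adds to these counts.

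A UMI does not by itself mark a cell as a source. Barcodes with 20 to 60 UMIs, too few for a cell, served as a measure of RNA outside cells, since the tumor library holds no cell type that should lack these genes. In tumor 5945 such barcodes with 268014 UMIs held Tnf at 261 CPM, against 443 CPM in the summed tumor cells, and the cells stood above them in Osm, Il23a, Spp1 and Tnfsf14 too, by 1.38 to 1.80 times. Vegfa was at 1.19 times, Tgfb1 at 1.08 times and Csf1 at 0.854 times the level outside cells. Hbegf, with 9 UMIs in tumor cells and 11 outside them, was at 0.383 times that level. A cell made up wholly of that RNA would hold a UMI at a depth of 441 in 10.9% of cases for Tnf, 8.50% for Osm and 8.20% for Tnfsf14, below the 13.1%, 11.3% and 10.3% seen. Counting error alone gives 95% intervals of 8.59% to 13.5% for Tnf and 6.19% to 10.6% for Tnfsf14, which hold the shares seen, and of 6.46% to 10.9% for Osm, which does not. For Tgfb1 it would be 3.56%, against 3.96% seen. It would do so in 23.2% of cases for Csf1, 10.1% for Vegfa, 9.10% for Il23a and 7.14% for Spp1, at or above the shares seen. A cell made up wholly of outside RNA is an extreme case, and the part of each cell's RNA that came from outside was not measured. The shares seen therefore do not give the number of expressing cells. In blood the same barcodes held 1 Tnf, 0 Il23a, 1 Spp1, 3 Vegfa and 2 Osm UMIs in 246931. Csf1 had 22 UMIs there, at 89.1 CPM, against 78.5 CPM in the summed blood cells. In tumor Csf1 stood at 597 CPM outside cells and at 510 CPM in the summed cells. Its level in cells was thus not above that outside cells in either tissue. Tnfsf14 stood outside cells at 328 CPM in blood and at 194 CPM in tumor. For these genes RNA outside cells differed between the tissues in the same direction as the cells. The part of RNA outside cells in the fold changes was not tested.

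**Figure D3:**
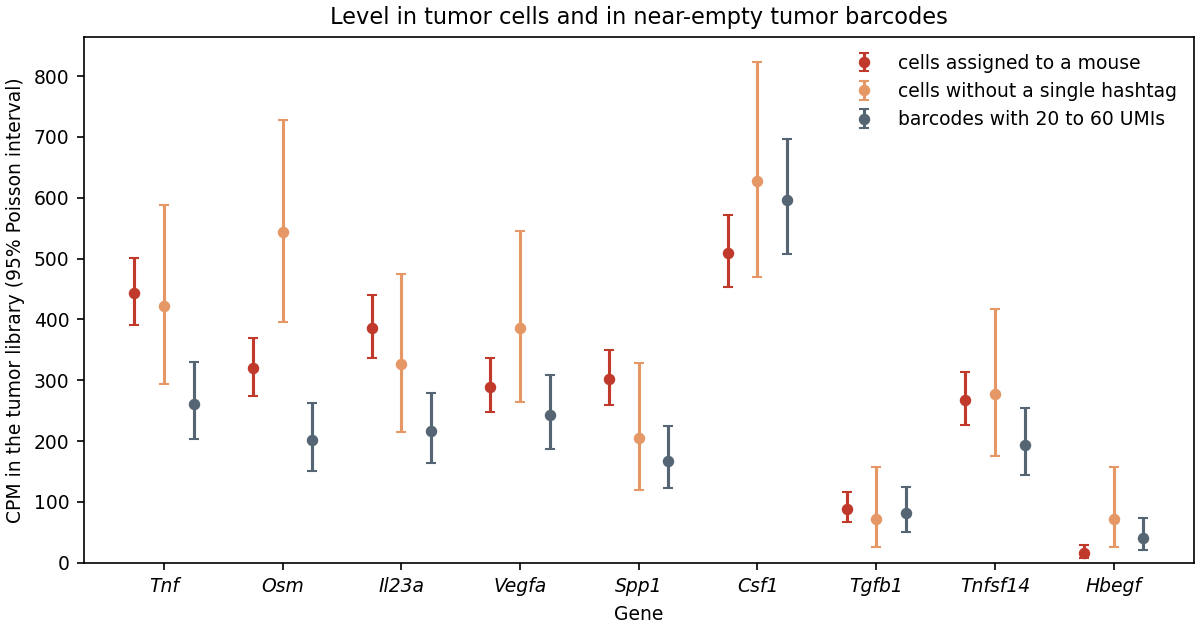
Level of each member in the tumor library, as CPM with 95% Poisson intervals (counting error only), in cells assigned to a mouse, in cells without a single hashtag and in barcodes with 20 to 60 UMIs. Tnf, Osm, Il23a and Spp1 are higher in assigned cells than in near-empty barcodes without overlap of the intervals, while those of Vegfa, Csf1, Tgfb1, Tnfsf14 and Hbegf overlap.

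How the UMIs were spread over tumor cells differed among the members. Il23a was held by few cells at high counts. Its 10 highest cells carried 59.3% of its 221 UMIs, up to 19 in a single cell, and 15 of its 56 cells had 4 UMIs or more. Spp1 was as uneven, with 52.6% of 173 UMIs in 10 cells, up to 17 in a cell, and 14 of 59 cells at 4 or more. The 10 highest Il23a cells came from all 3 mice (2, 7 and 1 cells), as did those of Spp1 (1, 6 and 3 cells), and 1 of each 10 carried markers of another cell type. Tnf was intermediate, with 28.7% of 254 UMIs in 10 cells and up to 13 in a cell. Csf1 had 14.7% of 292 UMIs in 10 cells, no more than 7 in a cell, and 124 of 190 cells at a single UMI. The share held by 10 cells depends on a gene's number of UMIs, and Tgfb1, with 38 of 44 cells at a single UMI and up to 3 in a cell, reached 33.3%. In blood no cell held more than 1 UMI of Tnf, Vegfa or Spp1.

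**Figure D4:**
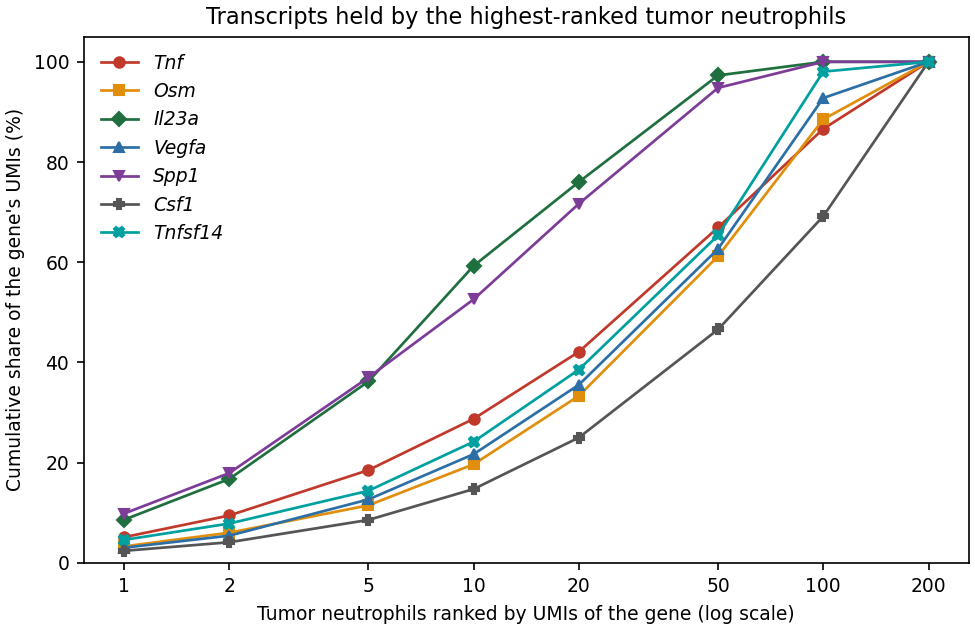
Share of each gene's UMIs (y axis, percent) held by the highest-ranked 1 to 200 of 841 tumor neutrophils (x axis, log scale), cells ranked for each gene separately, for 7 members (Tgfb1 and Hbegf, with 51 and 9 UMIs, are not drawn). At 10 cells the curves of Il23a and Spp1 stand at 59.3% and 52.6% of UMIs and that of Csf1 at 14.7%.

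Pairs of members in the same tumor cell were described without a test. A Tnf UMI was present in 26 of the 56 cells with Il23a, which is 46.4%, and in 13.8% of the other tumor cells. By mouse the shares were 33.3%, 48.6% and 46.2% in cells with Il23a, against 16.0%, 13.1% and 14.6% in the others. Shares by mouse, here and below, rest on few cells, fewest in mouse 1, which had 106 tumor cells in all. Cells with a UMI of a given member were deeper than the others, with medians of 665 against 569 UMIs for Il23a, 672.5 against 564 for Vegfa and 737 against 549 for Osm. A Csf1 UMI was present in 13.4% of cells with Vegfa and 24.0% of cells without. By mouse these shares were 18.2%, 9.33% and 23.1% with Vegfa, against 24.2%, 24.1% and 23.4% without, so mouse 3 showed next to no difference. A Tnf UMI was present in 14.9% of cells with Osm and 16.1% of cells without.

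Tumor cells were next split within each mouse at the median share of UMIs from a list of NF-kB target genes, none of them a member. The high class drew a median of 11.2% to 14.1% of its UMIs from the list and the low class 3.92% to 5.83%, with similar depth (medians of 573.5 to 646 and 551.5 to 564.5 UMIs). Il23a stood at 1443, 871 and 696 CPM in the high class of mice 1, 2 and 3, against 0, 30.5 and 17.2 CPM in the low class. That is 214 of its 221 UMIs in the high class, and the classes did not overlap. Tnf stood at 705, 864 and 1139 CPM in the high class and at 178, 137 and 155 CPM in the low class, again without overlap. The log2 fold changes were 5.04 ± 0.39 for Il23a (adjusted p = 3.07e-07) and 2.47 ± 0.26 for Tnf (adjusted p = 1.17e-05), by edgeR with the mouse as a block. These were the members called among 7 tested, in a split where 4.95% of 829 genes were called higher, 4.46% lower and 9.41% in all. Without tumor mouse 2 or mouse 3 Tnf was not called (adjusted p = 0.101 and 0.0678, edgeR), at log2 fold changes of 2.40 and 2.38. Without tumor mouse 2 that of Il23a was 6.04, and with HTODemux assignment it was 3.75. The split is a cut through a continuous range, with 95 of the 841 cells within 10% of the cut value.

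The other members did not follow the NF-kB list to a degree that passed the test. Osm stood at 235, 341 and 316 CPM in the high class and at 445, 315 and 516 CPM in the low class, a log2 difference of -0.43 ± 0.27 (edgeR, adjusted p = 0.379). Vegfa was higher in the high class of all 3 mice, at 235, 423 and 422 CPM against 148, 259 and 275 CPM, but at 0.54 ± 0.29 was not called (edgeR, adjusted p = 0.291). Tnfsf14 was also higher in the high class of all 3 mice without being called, at 403, 322 and 274 CPM against 326, 305 and 103 CPM. Log2 fold changes were 0.47 ± 0.24 for Csf1, 0.26 ± 0.34 for Tnfsf14 and -0.21 ± 0.35 for Spp1, and Tgfb1 and Hbegf were too sparse to be tested.

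**Figure D5:**
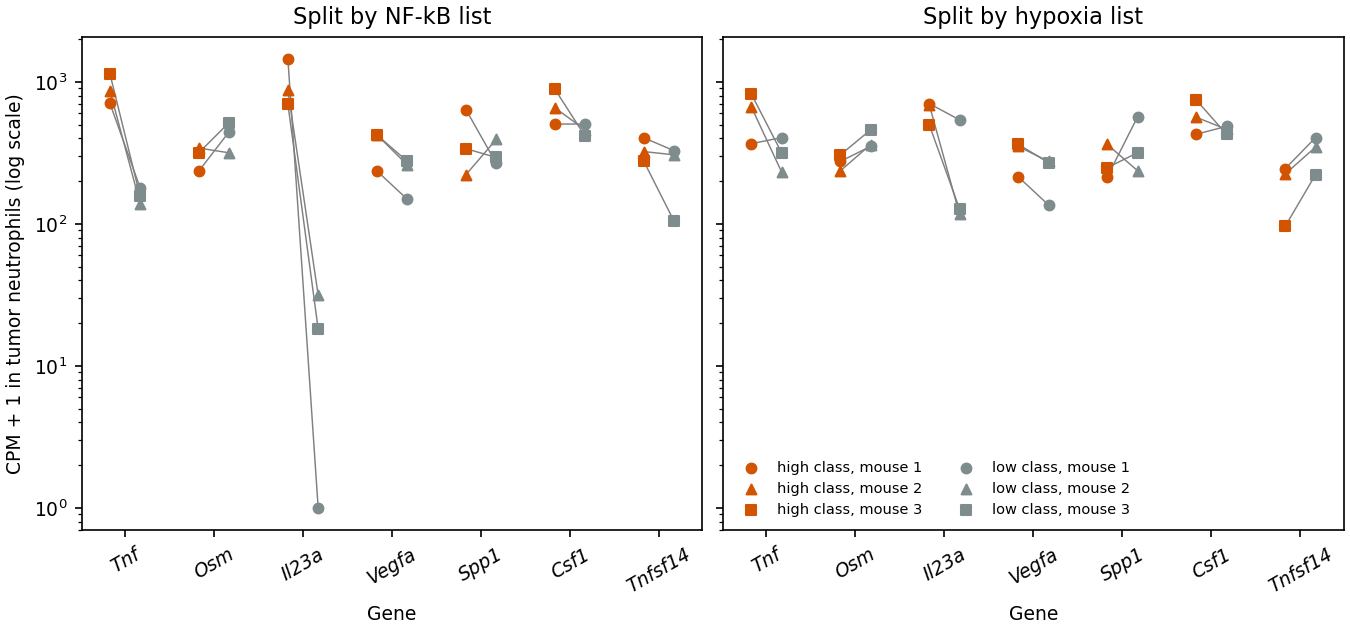
CPM + 1 (log axis) of 7 members in tumor neutrophils of each mouse, high class left of low class and joined by a line, for the split by the NF-kB list (left panel) and the hypoxia list (right panel). In the NF-kB split Il23a, Tnf, Vegfa and Tnfsf14 are higher in the high class of all 3 mice, of which Vegfa and Tnfsf14 were not called. In the hypoxia split Il23a and Vegfa are higher and Tnfsf14 and Osm lower in the high class of all 3, of which Vegfa and Osm were not called.

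A second split used a list of genes induced by low oxygen, such as Hilpda, Ero1l and P4ha1, which took a median of 1.33% to 1.52% of UMIs in the high classes and 0.198% to 0.312% in the low classes. Vegfa, the member best known as induced by low oxygen, stood at 213, 350 and 362 CPM in the high class and at 135, 274 and 268 CPM in the low class. It was higher in all 3 mice, yet its log2 fold change of 0.31 ± 0.30 was not called (95% interval -0.30 to 0.92, edgeR, adjusted p = 0.446). Il23a stood at 701, 688 and 496 CPM in the high class and 539, 115 and 126 CPM in the low class. On the log2 scale Il23a was higher in the high class by 1.67 ± 0.33 (edgeR, adjusted p = 4.96e-04), and Tnf by 1.06 ± 0.29 (adjusted p = 0.00460) with 2 of 3 mice higher. Tnfsf14 was lower in the high class of all 3 mice, at 244, 224 and 95.4 CPM against 404, 346 and 221 CPM, with -0.86 ± 0.33 (edgeR, adjusted p = 0.0408). In this split 16.9% of 880 genes were called higher and 19.2% lower, 36.1% in all, so 2 members higher and 1 lower of 7 tested is near that background. Osm was also lower in the high class of all 3 mice, at 274, 235 and 305 CPM against 350, 361 and 458 CPM, but at -0.66 ± 0.27 was not called (edgeR, adjusted p = 0.0571). It was called with HTODemux (-0.96, adjusted p = 0.0125), between the outer parts of each mouse's range (-0.98, adjusted p = 0.0245) and without cells of other types (-0.88, adjusted p = 0.0102). With 2 mice left, some calls were lost, while Il23a, Tnf and Tnfsf14 kept their directions. Il23a stayed called without mouse 1 (2.23, adjusted p = 0.0425, edgeR) and without mouse 3 (1.60, adjusted p = 5.99e-05). Tnf stayed called without mouse 3 (0.94, adjusted p = 0.0390, edgeR). Without tumor mouse 2 the log2 fold changes were 0.95 for Il23a, 0.68 for Tnf and -1.04 for Tnfsf14 (edgeR, adjusted p = 0.0639, 0.193 and 0.224). Without mouse 1 they were 1.32 for Tnf and -0.92 for Tnfsf14 (adjusted p = 0.0628 and 0.146), and without mouse 3 that of Tnfsf14 was -0.79 (adjusted p = 0.142). Of the 420 cells in the high hypoxia class, 240 were also in the high NF-kB class.

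Cells of other types could also hold these messages. In tumor 44 of the 841 cells (2, 34 and 8 by mouse), with 8.96% of the UMIs, carried at least 2 markers of another type. They held 2.36% of the Tnf UMIs, 3.08% of Csf1, 5.23% of Tnfsf14, 7.65% of Osm, 8.60% of Il23a, 9.64% of Vegfa and 9.83% of Spp1, all near or below their share of UMIs. They held 27.5% of the Tgfb1 UMIs, at 273 CPM against 70.9 CPM in the remaining tumor cells, and 3 of the 9 Hbegf UMIs. With these cells left out, the 7 genes called in the filtered fit were still called in the same direction.

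The genes around the members were described from lists of their receptors, processing factors, relatives and target genes, against a median log2 fold change of -0.04 over all tested genes. Of 43 other secreted factors, 7 were tested, and 5 rose and 1 fell (median 1.59), with 4 rising by DESeq2. Of all tested genes 30.3% were higher and 29.6% lower. Without tumor mouse 2, 3 of 6 tested factors rose. Without the low-count filter 8 of 31 were called higher, against 7.5% of all genes in that fit. Mif, a cytokine released by many cells, stood at 668 ± 185 CPM in tumor, against 39.0 ± 8.91 CPM in blood (SD, n = 3 mice; log2 fold change 4.09), and Inhba, which encodes an activin subunit, at 541 ± 109 and 44.9 ± 29.3 CPM (3.61). Thbs1, the matrix protein thrombospondin 1, had 39 tumor and 2 blood UMIs, a ratio of 39.0 (95% interval 10.1 to 334, counting error only). Lymphotoxin beta, Ltb, like LIGHT a ligand of the lymphotoxin beta receptor, fell to 64.7 ± 18.2 CPM in tumor, against 485 ± 32.7 CPM in blood (log2 fold change -2.95).

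Of 26 receptors, 9 were tested, and 3 rose and 3 fell (median -0.37), with 2 rising by DESeq2, which is near the 30.3% higher and 29.6% lower of all tested genes. Those that passed went both ways. Tnfrsf1b, TNF receptor 2, stood at 367 ± 74.9 CPM in tumor, against 45.7 ± 6.02 CPM in blood (log2 fold change 3.06, edgeR, adjusted p = 4.99e-10), whereas Tnfrsf1a, TNF receptor 1, stood at 152 ± 29.0 and 282 ± 90.1 CPM (-0.72, adjusted p = 0.0148). Of the receptors for LIGHT, Ltbr fell by 2.27 on the log2 scale (7 tumor and 72 blood UMIs). The integrin chains Itgb1 and Itga4 were at 1.69 and -2.50, and the TGF-beta receptor Tgfbr1 rose by 0.94 (42 tumor and 46 blood UMIs). The M-CSF receptor gene Csf1r was not called, at 14.2, 46.7 and 103 CPM in tumor mice and 71.0, 71.0 and 78.7 CPM in blood mice.

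Of 19 gene names listed for shedding and activation, 8 were tested, and 3 rose and 2 fell (median 0.35), with 2 rising by DESeq2. This is near the 30.3% higher and 29.6% lower of all tested genes. Adam17, the protease that releases TNF and HB-EGF, stood at 171 ± 41.3 CPM in tumor, against 64.9 ± 11.6 CPM in blood (SD, n = 3 mice; log2 fold change 1.28, edgeR, adjusted p = 2.72e-04). Cd9, a tetraspanin that binds HB-EGF, rose by 2.68, and Tmed10, a protein of the secretory pathway, by 0.69. Mmp9, a matrix protease that is also among the neutrophil markers, fell by 2.09, and Nrros, which holds latent TGF-beta at the surface of myeloid cells, fell by 1.65.

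Target genes differed between the pathways. Of 15 targets of TNF signalling 14 were tested and all 14 rose (median 2.68), among them Tnfaip3 (5.92) and Icam1 (5.56), while Traf1 had 50 tumor UMIs and 1 blood UMI, a ratio of 100.1 (95% interval 17.2 to 4033). Of 12 TGF-beta targets 7 were tested and 6 rose (median 2.26; 4 by DESeq2), led by Tgif1 (7.37), Skil (3.72) and Bhlhe40 (3.70). These list names do not say that TNF or TGF-beta was the inducer, and several members of both lists respond to many stimuli. Of 11 targets of oncostatin M and STAT3, 8 were tested, of which Pim1 (2.47), Mcl1 (0.85) and Junb (0.54) rose and Cebpd (-2.56), Il4ra (-2.06) and Socs3 (-0.80) fell, with a median of 0.36. These counts are near the 30.3% higher and 29.6% lower of all tested genes. Of the NF-kB list, which shares genes with the TNF targets, 25 of 27 tested genes rose (median 3.87). Its leading genes were the chemokines Cxcl2 (10.79), Ccl3 (4078 tumor and 3 blood UMIs) and Cxcl1, at least 189-fold higher against 3 counts over the summed blood mice. Of the hypoxia list 18 of 19 rose (median 2.76), with 1129 tumor UMIs and 1 blood UMI of the lipid droplet gene Hilpda and log2 fold changes of 5.74 for Ero1l and 4.49 for P4ha1. Genes near 0 in blood, such as Traf1, passed the low-count filter through their tumor counts. Without the filter 12 of 15 TNF targets and 4 of 10 TGF-beta targets were called higher, against 7.5% of 16032 genes. In that fit 23 of 28 genes of the NF-kB list and 17 of 25 of the hypoxia list were higher. Zfp36, the gene of tristetraprolin and a target on 2 of the lists, rose by 1.47.

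The genes whose levels followed a member most closely over the 6 sums were found by the root-mean-square difference of centred log2 CPM. A prior count of 2 was added before the log, which narrows differences among genes with few or no blood UMIs. Tnf was nearest to Tnfaip3 (0.17), Cd274 (0.19) and Il1r2 (0.26). Il23a was nearest to Egr1 (0.21), Ptgs2 (0.31) and Tgif1 (0.34). Osm was near to Bnip3 (0.10) and Csf1 (0.13), and Csf1 nearest to Prdx6 (0.11), Samsn1 (0.12) and Osm (0.13), so that Osm and Csf1 named each other. Vegfa was nearest to Hal (0.12), Gnl3 (0.26) and Pcna (0.27), and Spp1 to P4hb (0.24), F10 (0.32) and Nfkbia (0.33). Tnfsf14 was nearest to Slk (0.05), Sec11c (0.09) and Gatad2a (0.11), and Tgfb1 to CT010467.1 (0.06), Il1rap (0.07) and Sept7 (0.07). The 6 sums fall into 2 tissues with 1 library each, and the likeness is a description.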

How the data were processed

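The authors deposited raw UMI counts per gene and cell barcode for 1 tumor and 1 blood RNA library, and raw counts per hashtag for both. The submitters' processing notes list STAR and mm10, with no version. The sources used here do not give the gene counter or annotation. The members and all gene lists were chosen with earlier results of these data known. Barcodes were filtered and assigned as described above (with at least 10 hashtag counts), and counts were summed per mouse and tissue. No doublet caller was run beyond the hashtag rule, under which 106 tumor and 159 blood cells carried no single hashtag and entered no comparison.

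Sums were tested with edgeR 4.0.16 (R 4.3.3, quasi-likelihood, TMM, filterByExpr) with tissue as the only term, and adjusted over all tested genes at 0.05. The hashtag numbers share the same 3 antibodies, but the labels do not say which marks which mouse. Class splits had the mouse as a block and left the list's own genes out. P-values measure the spread between mice within 1 library per tissue. Folds against 0 counts use 3 counts as a floor and take the tumor level as measured, without its counting error. The 95% intervals of counts are exact and cover counting error only. Shares are expected values over all thinnings to 441 UMIs, the 25th percentile of tumor cells. Alternatives were DESeq2 1.42.0, other scalings, no filter, other cell filters, HTODemux (Seurat 5.3.0) and leaving out each mouse. Scripts were tested on simulated data. Named genes were the members, up to 3 per direction and list with the largest change among those called without overlap between tissues, and the 3 nearest genes per member, of which 1 is not reported here; Zfp36, Csf1r and any other gene were named after their values were seen. Promoters are from RefSeq and 3′ UTRs from GENCODE vM21. Sequences of Hbegf are not reported here, and Osm and Il23a were not matched in the promoter table.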

Additional observations from a re-analysis of the deposited data

Results flagged for a closer look

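All 9 members were detected in tumor barcodes outside every comparison, and 6 of them stood above blood there. These are the 106 tumor barcodes, with 82783 UMIs, that passed the cell filters without a single dominant hashtag, against 159 such barcodes with 124722 UMIs in blood. Each of the 6 is flagged because the lower end of its 95% Poisson interval in tumor lay above the upper end in blood. Tnf stood at 423 CPM (294 to 588) in tumor, with 0 UMIs in blood. Osm stood at 544 CPM (396 to 727) in tumor, against 56.1 CPM (22.6 to 116) in blood. Il23a stood at 326 CPM (215 to 475) in tumor, with 0 UMIs in blood. Vegfa stood at 387 CPM (264 to 546) in tumor, against 1 UMI in blood. Spp1 stood at 205 CPM (120 to 329) in tumor, against 1 UMI in blood. Csf1 stood at 628 CPM (469 to 824) in tumor, against 56.1 CPM (22.6 to 116) in blood. In these barcodes Osm was higher than in the tumor cells assigned to a mouse (319 CPM, 275 to 369). Tnfsf14, at 278 CPM in tumor against 657 CPM in blood, was lower in tumor as in the assigned cells. Hbegf stood at 72.5 CPM (26.6 to 158) from 6 UMIs in tumor, with 0 UMIs in blood and overlapping intervals, against 15.7 CPM in the assigned tumor cells. The intervals cover counting error only.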

How the results depend on the processing

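Between tumor and blood, 6 members stayed higher and Tnfsf14 stayed lower under all 17 alternatives, with log2 fold changes from 5.85 to 6.68 for Tnf and from -1.07 to -0.62 for Tnfsf14. The Hbegf call was lost with the replicate block (adjusted p = 0.155, edgeR) and in the cell and hashtag alternatives given above, and DESeq2 gave it no adjusted p. Same-numbered tumor and blood sums were not correlated (0.021, 0.008 and -0.023). This cannot show whether equal numbers mark the same mouse, which the labels leave unknown. The block changed no other member's call. Tgfb1 turned to -0.027 without a filter and to -0.085 without cells of other types. With at most 5% mitochondrial UMIs, 740 genes were higher and 673 lower, against 1114 and 1088. Upper-quartile scaling moved the median of all genes by -0.13. Leaving out a sum gave 6 to 7 members called higher.

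In the hypoxia split (149 genes higher, 169 lower; 2 members higher, 1 lower) DESeq2 gave 45 and 76 genes and 1 and 0 members, and cells with at least the median depth gave 73 and 93 genes and 0 members either way. Leaving out a mouse gave 12 to 104 genes higher, 40 to 151 lower, 0 to 2 members higher and 0 lower. No member was lower without a filter (chosen after seeing the data) or without the replicate block, 2 were lower with HTODemux and without cells of other types, and 1 was higher with only the outer parts of each mouse's range. Spp1, at -0.16, ran from -0.92 to 0.15 with a mouse left out and was 0.039 with HTODemux, and Csf1 turned to -0.063 with only the outer parts of each mouse's range and to -0.0062 without cells of other types. In the NF-kB split (41 genes higher, 37 lower) DESeq2 gave 27 and 16 and HTODemux 24 lower. Leaving out a mouse gave 1 to 17 genes higher, 4 to 22 lower and 1 to 2 members higher. There Spp1, at -0.21, ran from -0.54 to 0.58 with a mouse left out, and was 0.024 with DESeq2, 0.046 with HTODemux and 0.021 with only the outer parts of the range. The cause was not tested for any of these. Shares of cells kept their direction for the 7 genes without overlap. Depth limits Hbegf (9 UMIs), Tgfb1 (51 UMIs in tumor) and the blood values of Tnf and Spp1.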
